A study of Mus musculus with 24 samples.

Results

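The genes described here encode the protein components of the cytosolic ribosome. They were taken as all protein-coding genes whose symbol is Rpl or Rps followed by a number, with at most an a, x, y or l and a further number after it, together with Rpsa, Rplp0, Rplp1 and Rplp2. Pseudogenes and the Rps6k kinases were left out. The rule found 83 genes among the 39017 genes of the count tables, 51 of the large subunit and 32 of the small subunit, and it used no measured value. Of these, 6 are variant paralogs of another member (Rpl3l, Rpl7l1, Rpl10l, Rpl22l1, Rpl39l and Rps27l).

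RNA was sequenced from cells of the mouse embryonic cerebral cortex at E15.5, in 24 libraries that fall into 6 groups of 4. Cells were sorted into PAX6+ cells, labelled radial glia, TBR2+ cells, labelled intermediate progenitors (TBR2 is the protein of the gene Eomes), and PAX6-TBR2- cells, which the series text calls neurons. WT groups carry Prdm16 flox/flox, and KO groups carry the same floxed alleles plus Emx1Ires-Cre, which expresses the recombinase from the Emx1 locus in the dorsal telencephalic lineage. All 6 groups therefore carry floxed Prdm16, only the KO groups carry Cre, and an effect of Cre itself cannot be told apart from that of the deletion. Cells of another lineage, such as interneurons that migrate into the cortex, do not derive from Emx1-expressing progenitors. The series text names 4 biological replicates a group, but embryos and litters are named nowhere in the labels, so p-values measure the spread between these libraries. In these bulk samples, fewer cells of a type and less RNA per cell cannot be told apart.

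The ribosome is built from ribosomal RNA and a set of ribosomal proteins, nearly all of them present once in each ribosome. The small subunit reads the mRNA, the large subunit joins the amino acids, and the large subunit's stalk of acidic proteins (Rplp0 with Rplp1 and Rplp2) recruits the elongation factors. Mammalian ribosomal protein mRNAs typically begin with a C followed by a run of pyrimidines at the 5′ end, the terminal oligopyrimidine motif, through which the mTOR kinase and the protein Larp1 regulate their translation. The cortex's radial glia divide and produce intermediate progenitors, and both give rise to neurons.

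The start sites of 13 members were read from RefSeq (GRCm38.p6), to show which of the genes described here carry that motif at the annotated start. Each sequence runs 5′ to 3′ on the gene's strand, from 15 bases before the start base to the 15 bases that begin with it. Capitals mark the nearest run of a C followed by at least 4 bases that are each C or T, where one begins within 5 bases of the start base.
Rpl15, chr14:18270972-18271001, minus strand: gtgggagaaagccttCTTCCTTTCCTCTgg
Rplp2, chr7:141447636-141447665, plus strand: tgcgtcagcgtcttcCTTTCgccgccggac
Rpl14, chr9:120571502-120571531, plus strand: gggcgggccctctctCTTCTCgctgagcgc
Rps10, chr17:27635230-27635259, minus strand: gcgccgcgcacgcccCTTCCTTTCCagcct
Rps18, chr17:33955651-33955680, minus strand: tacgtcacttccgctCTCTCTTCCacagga
Rps27l, chr9:66946071-66946100, plus strand: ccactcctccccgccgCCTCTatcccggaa
Rps26, chr10:128626492-128626521, minus strand: gtcgggcaagccgccggatCCTCTTTCgag
Rps2, chr17:24720048-24720077, plus strand: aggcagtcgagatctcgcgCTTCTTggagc
Rpl39, chrX:37085208-37085237, minus strand: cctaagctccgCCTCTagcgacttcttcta
Rpl13, chr8:123102335-123102364, plus strand: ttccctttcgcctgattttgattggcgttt
Rpl4, chr9:64173372-64173401, plus strand: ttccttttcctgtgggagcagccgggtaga
Rps4x, chrX:102189377-102189406, minus strand: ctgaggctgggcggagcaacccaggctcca
Rps12, chr10:23787195-23787224, minus strand: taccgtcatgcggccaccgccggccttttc
A run counted from the start base was found in Rpl15, Rplp2, Rpl14, Rps10 and Rps18. In each of these the base just before the start base was also C or T. The run lay a few bases off the start base in Rps27l, Rps26, Rps2 and Rpl39. The windows of Rpl13, Rpl4, Rps4x and Rps12 held no run this near the start base.

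The table held a start for 63 of the 83 members, and some had more than 1 start. A run counted from the start base was found in 17.3% of the 75 member starts, against 2.51% of all 32851 starts. For these shares the base before a run was not looked at, so a longer stretch of C and T can begin upstream of it. It did so in the windows of Rpl15, Rplp2, Rpl14, Rps10 and Rps18 above. Within 5 bases of the start base, the shares were 41.3% and 18.3%. A match is a description of these letters on the gene's own strand, and an annotated start can differ from the one in use.

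Pax6 and Eomes were each highest in the population sorted for their protein. Pax6 averaged 434 counts per 1000000 (CPM) in WT PAX6+ cells, 241 in WT TBR2+ cells and 29.9 in WT PAX6-TBR2- cells, and Eomes averaged 77.6, 930 and 42.1. Summed radial glia markers were 4130 to 4900 CPM in WT PAX6+, 572 to 744 in WT TBR2+ and 991 to 1330 in WT PAX6-TBR2- libraries, and summed intermediate progenitor markers 378 to 546, 2170 to 2540 and 315 to 496. TBR2+ libraries also held high levels of neuron markers, 6540 to 8370 CPM in WT against 537 to 616 in WT PAX6+ libraries. Prdm16, the targeted gene, averaged 252 ± 34.1 CPM in WT and 187 ± 27.2 in KO PAX6+ cells (SD, n = 4 each), a log2 fold change of -0.43 (SE 0.12, adjusted p = 0.05798, edgeR's quasi-likelihood test with Benjamini-Hochberg adjustment). In TBR2+ cells it averaged 55.5 ± 16 CPM in WT and 52.2 ± 7.95 in KO (log2 fold change -0.09, edgeR adjusted p = 0.8998), and in PAX6-TBR2- cells 25.2 ± 8.34 and 18.9 ± 7.46 (-0.44, edgeR adjusted p = 0.8136). The difference passed the test in none of the 3 populations. Reads of the whole gene were counted, so these values do not measure the deleted exons alone. Libraries held 4948977 to 30027954 counts. Reads of mitochondrially encoded genes took 11.3% to 24% of counts in PAX6+ libraries, 24.7% to 39.3% in TBR2+ libraries and 20.4% to 26.1% in PAX6-TBR2- libraries. Library identifiers share a prefix within each population and not between populations, so population and library batch cannot be told apart. WT and KO share the prefix within each population.

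Ribosomal protein genes took a small share of each library. Over all 24 libraries the 83 members held 566305 reads. The share of counts was lowest in KO PAX6-TBR2- replicate 1, at 0.145% (95% Wilson interval 0.142% to 0.148%), and highest in WT PAX6+ replicate 4, at 0.382% (0.378% to 0.386%). Reads carried no molecular identifiers, so such intervals cover counting error only.

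Among PAX6+ libraries the members' share of counts averaged 0.372% ± 0.0126 in WT (SD, n = 4; 0.354% to 0.382%) and 0.326% ± 0.0252 in KO (n = 4; 0.305% to 0.362%), and the groups overlapped. Among TBR2+ libraries it averaged 0.302% ± 0.028 in WT (0.279% to 0.342%) and 0.237% ± 0.0333 in KO (0.193% to 0.264%). Among PAX6-TBR2- libraries it averaged 0.189% ± 0.017 in WT (0.166% to 0.206%) and 0.151% ± 0.00648 in KO (0.145% to 0.158%). In both of these populations every KO library lay below every WT library. As a share of the counts of non-mitochondrial genes, the ranges were 0.428% to 0.475% in WT and 0.362% to 0.426% in KO PAX6+ cells, 0.382% to 0.492% and 0.319% to 0.416% in TBR2+ cells, and 0.224% to 0.278% and 0.188% to 0.204% in PAX6-TBR2- cells. On that scale the TBR2+ groups overlapped and the other populations' groups did not. These shares are sums over the members and are given with no test.

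**Figure D1:**
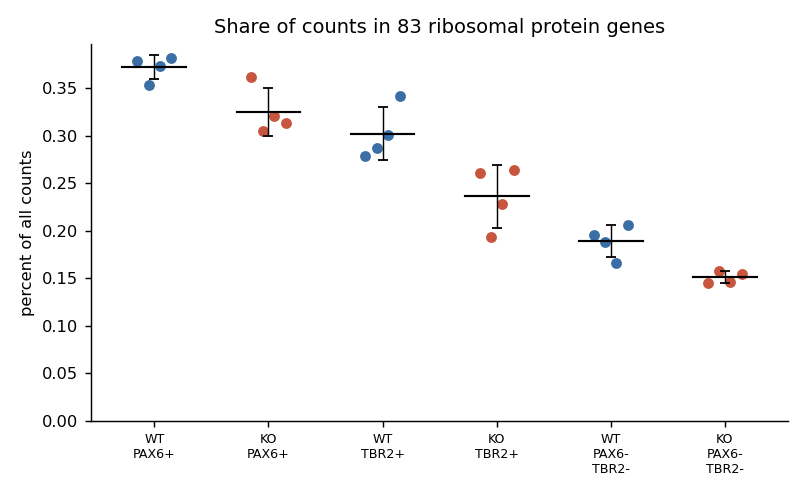
Share of all counts that fell in the 83 cytosolic ribosomal protein genes (percent, vertical axis) in each of the 24 libraries, by population and genotype; points are libraries, bars are group means and error bars the SD (n = 4). KO libraries lay below every WT library in TBR2+ and PAX6-TBR2- cells, while the PAX6+ groups overlapped between 0.354% and 0.362%.

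Member genes differed widely in level. Per kb of mRNA in WT PAX6+ cells, high levels were those of Rpl4, an early-assembling large subunit protein, at 251 CPM per kb, Rps15 at 232, Rpl32 at 189 and Rpl8 at 163. The lowest were Rpl10l and Rpl39l, both without a read in any of the 24 libraries, and Rpl3l at 0.0363 CPM per kb. A count of 0 allows up to 3 counts, which is 0.014 CPM over all 213726782 counts.

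With the variant paralogs left out, levels per kb were higher in members with more sequence of their own. Many ribosomal protein genes have processed pseudogene copies, and the labels do not say how reads that match several genes were treated. For each member, the share of 50-base mRNA windows found in no other annotated gene was computed from the GENCODE M21 transcripts. The median level in WT PAX6+ cells was 14.3 CPM per kb over the 25 members with under 25% unique windows. It was 26.9 over the 24 with 25% to 50%, 45.3 over the 21 with 50% to 75%, and 134 over the 8 others with at least 75%. The variant paralogs were left out of this last set only. Over 77 members, unique share and log level had r = 0.50 and rho = 0.47, given as a description. Over all 83 the values were r = 0.03 and rho = 0.30. Rpl10l, Rpl3l and Rpl39l had 92.4%, 100% and 100% unique windows and almost no reads. The part of shared sequence in these levels was not tested.

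Rps27, the member with the lowest share of unique windows, is shown beside its paralog Rps27l. Rps27 (chromosome 3, 90212522 to 90213651, minus strand, GRCm38) had 1.4% unique windows and 1.18 CPM per kb in WT PAX6+ cells, and Rps27l (chromosome 9, 66946086 to 66949516, plus strand) had 86.3% and 27.8. The same 50 coding bases, 161 to 210 counted from the start codon, read as follows in the GENCODE transcripts, with capitals at the 13 bases where the pair differ.
Rps27: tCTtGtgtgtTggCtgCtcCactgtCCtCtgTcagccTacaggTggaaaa
Rps27l: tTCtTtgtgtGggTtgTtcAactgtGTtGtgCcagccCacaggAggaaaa
The Rps27 stretch is found unchanged in 5 other annotated genes (Gm17241, Gm19243, Gm45772, Rps27-ps1 and Rps27rt) and the Rps27l stretch in 1 (Gm46542). The stretch was chosen because its Rps27 bases occur in the largest number of other genes, so these counts do not compare the pair. Over the whole coding sequence the pair are 76.2% identical. Rps27 lay between 0.17 and 1.49 CPM in the 24 libraries, and it was too low to be tested in any comparison.

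**Figure D2:**
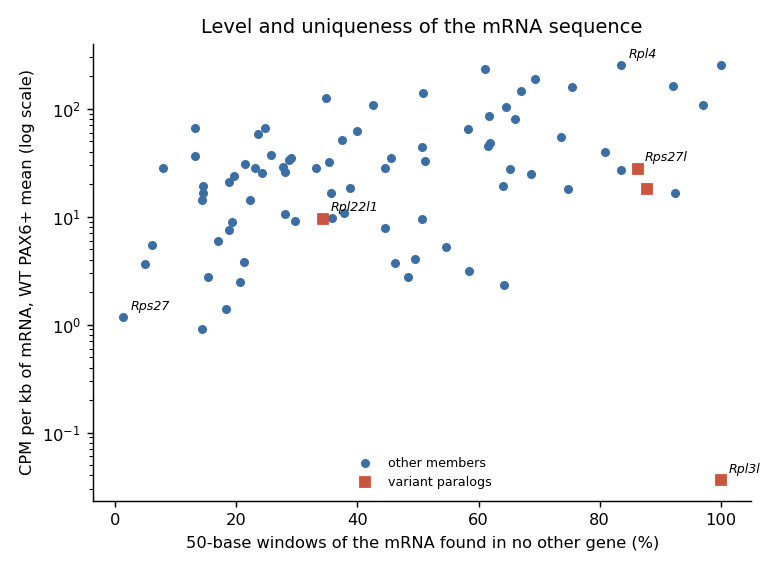
Level of each member in WT PAX6+ cells (CPM per kb of mRNA, log axis) against the percentage of its 50-base mRNA windows that occur in no other annotated gene; each point is 1 gene. Rps27 sits at the low end of both axes (1.4% unique, 1.18 CPM per kb) and Rpl4 near the high end (83.5% unique, 251 CPM per kb).

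Loss of Prdm16 was compared first in PAX6+ cells, the population with most Prdm16. A stalk gene had the lowest p-value among members there. Rplp0, the stalk's base (chromosome 5, 115559467 to 115563727, plus strand, GRCm38), had 90.6, 77.6, 90.3 and 93.8 CPM in WT replicates 1 to 4 and 78.6, 70.0, 56.3 and 64.1 in KO. All but 1 of the KO libraries lay below the lowest WT library. Its log2 fold change was -0.38 (SE 0.11, edgeR's quasi-likelihood test, adjusted p = 0.09533), which did not pass the threshold of 0.05.

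Rplp1 (chromosome 9, 61913284 to 61914542, minus strand), an acidic stalk protein, had 31.8, 29.6, 40.9 and 22.6 CPM in WT PAX6+ cells and 25.2, 26.3, 25.4 and 17.2 in KO, and the groups overlapped (log2 fold change -0.41, SE 0.18, edgeR adjusted p = 0.3374). For Rplp2, its partner (chromosome 7, 141447370 to 141451585, plus strand), the log2 fold change was -0.16 (SE 0.14, adjusted p = 0.7474). Rpl31, a large subunit protein near the peptide exit, had the lowest value, with 3.59, 3.76, 3.2 and 4.06 CPM in WT and 2.07, 2.22, 2.11 and 2.89 in KO. These groups did not overlap, but the counts were low and the change did not pass the test (log2 fold change -0.64, SE 0.26, edgeR adjusted p = 0.3053). The highest values were those of Rpl22l1 (0.38, SE 0.29), Rpl24 (0.34, SE 0.37) and Rpl10 (0.34, SE 0.20), with adjusted p-values of 0.7039, 0.8303 and 0.5601.

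Of the 83 members, 78 had enough counts to be tested in PAX6+ cells (all but Rpl3l, Rpl10l, Rpl23a, Rpl39l and Rps27) and none passed at an adjusted p of 0.05 in edgeR's quasi-likelihood test, where 3.64% of the 14212 genes tested did (1.19% lower in KO). At an unadjusted p under 0.05, 7 members were lower (5.4% of all genes) and 0 higher (6.77%). DESeq2 called 1 member, Rplp0, and its share of all genes is not given. KO and WT libraries did not overlap in 7 members that were lower in KO (3.66% of all genes) and 1 that was higher (5.02%). The log2 fold change was below 0 in 60 of the 78 (76.9%, against 49.6% of all genes), with a median of -0.15, quartiles of -0.23 and -0.02 and a range of -0.64 to 0.38. The median over all genes was 0.00. Large and small subunit members had medians of -0.11 and -0.17. Some cell type markers also differed between these groups. Eomes averaged 46.3 ± 10.7 CPM in KO and 77.6 ± 22.5 in WT PAX6+ cells (n = 4 a group), and it fell by 0.74 on the log2 scale (edgeR adjusted p = 0.0358). Intermediate progenitor markers summed to 342 to 460 CPM in KO against 378 to 546 in WT, and radial glia markers to 4690 to 5570 against 4130 to 4900, with overlap in both. Their part in the members' values was not tested.

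In PAX6+ cells the same-numbered WT and KO libraries deviated together from their group means in every pair, so a fit with the replicate number as a block was also made. It called 6 members lower in KO (3.07% of all genes) and 0 higher. Among them were Rplp0 (adjusted p = 0.01137), Rplp1 (adjusted p = 0.03988), Rpl13a, Rps3 and Rpl8, which were named after their values were seen. Without the block, edgeR gave log2 fold changes of -0.29 for Rpl13a, -0.29 for Rps3 and -0.28 for Rpl8.

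In TBR2+ cells Rplp0 again had the lowest p-value among members. Rplp0 had 74.6, 82.2, 80.4 and 101 CPM in WT and 73.7, 54.6, 61.3 and 66.5 in KO, and every KO library lay below every WT library. The log2 fold change was -0.40 (SE 0.12, edgeR adjusted p = 0.1416). Rplp1 had 40.0, 20.9, 44.7 and 47.1 CPM in WT and 30.6, 21, 28.9 and 29.8 in KO. WT replicate 2 lay at the KO level and the other WT libraries above it, and the log2 fold change was -0.47 (SE 0.21, edgeR adjusted p = 0.3698).

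The lowest log2 fold changes in TBR2+ cells were those of Rpsa, a small subunit protein also known as the laminin receptor, and of Rpl19. Rpsa had 10.3, 7.99, 7.15 and 13.4 CPM in WT and 8.47, 6.28, 3.78 and 6.12 in KO, with overlap (log2 fold change -0.65, SE 0.26, edgeR adjusted p = 0.3266). Rpl19 had 2.12, 1.96, 2.02 and 2.94 CPM in WT and 0.892, 1.32, 1.89 and 1.73 in KO, with no overlap (-0.65, SE 0.34, edgeR adjusted p = 0.4903). The highest were Rpl10a (0.28, SE 0.20), Rpl21 (0.27, SE 0.24) and Rps23 (0.24, SE 0.35).

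In TBR2+ cells Rpl24 and Rps29 were also too low to test. Of the 76 members tested, edgeR's quasi-likelihood test called none, against 1.76% of the 12687 genes tested (0.662% lower), and DESeq2 also called 0. At an unadjusted p under 0.05, 15 members were lower (5.49% of all genes) and 0 higher (6.85%). In 4 members all KO libraries lay below all WT libraries (3.15% of all genes), and in 0 above (3.74%). The log2 fold change was below 0 in 63 of 76 (82.9%, against 49.6%), with a median of -0.20, which was -0.13 when a trend on gene length and GC content was removed. The median over all genes was 0.00. Large and small subunit medians were -0.19 and -0.20.

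In PAX6-TBR2- cells more members had all KO libraries below all WT libraries. Rplp0 had 50.7, 44.5, 48.0 and 57.7 CPM in WT and 31.3, 35.5, 34.2 and 33.3 in KO (log2 fold change -0.59, SE 0.11, edgeR adjusted p = 0.1628). Rplp1 had 21.3, 19.3, 15.48 and 22.1 in WT and 13.8, 12.1, 11.7 and 11.6 in KO (-0.67, SE 0.15, edgeR adjusted p = 0.3063). Neither gene's groups overlapped. Rplp2 had 22.4, 19.8, 26.8 and 33.9 CPM in WT and 18.9, 20.9, 20.7 and 19.4 in KO, with overlap (-0.39, SE 0.16, edgeR adjusted p = 0.7219).

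Rpl37a, a zinc-binding protein of the large subunit, had the lowest log2 fold change in these cells. It had 19.5, 16.2, 15.2 and 19.4 CPM in WT and 13, 11.8, 8.99 and 8.88 in KO (-0.73, SE 0.17, edgeR adjusted p = 0.343). Rps15, a small subunit protein, had 63.5, 60.2, 73.6 and 67.9 CPM in WT and 50.5, 47.1, 50.9 and 44.5 in KO (-0.46, SE 0.10, adjusted p = 0.287). Both genes' KO libraries lay below all WT libraries, as did those of Rpl4 (297, 309, 270 and 381 CPM in WT and 240, 260, 212 and 256 in KO). The highest values were those of Rps23 (0.46, SE 0.35) and Rpl5 (0.23, SE 0.23).

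In PAX6-TBR2- cells Rpl19, Rpl24 and Rps29 were too low to test as well. Of the 75 members tested, edgeR's quasi-likelihood test called none, and it called 0.00774% of the 12928 genes tested (0.0% lower). DESeq2 called 2 members, Rplp0 and Rps15, and its share of all genes is not given. At an unadjusted p under 0.05, 30 members were lower (4.09% of all genes) and 0 higher (2.51%). All KO libraries lay below all WT libraries in 17 members (2.37% of all genes) and above in 0 (1.82%). The log2 fold change was below 0 in 69 of 75 (92.0%, against 49.9%), with a median of -0.28, against 0.00 over all genes. Large and small subunit medians were -0.31 and -0.27. Interneuron markers summed to 344 to 946 CPM in WT and 461 to 1100 in KO libraries of this population, with overlap and with none of the 7 called by edgeR, and their part in the members' values was not tested.

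**Figure D3:**
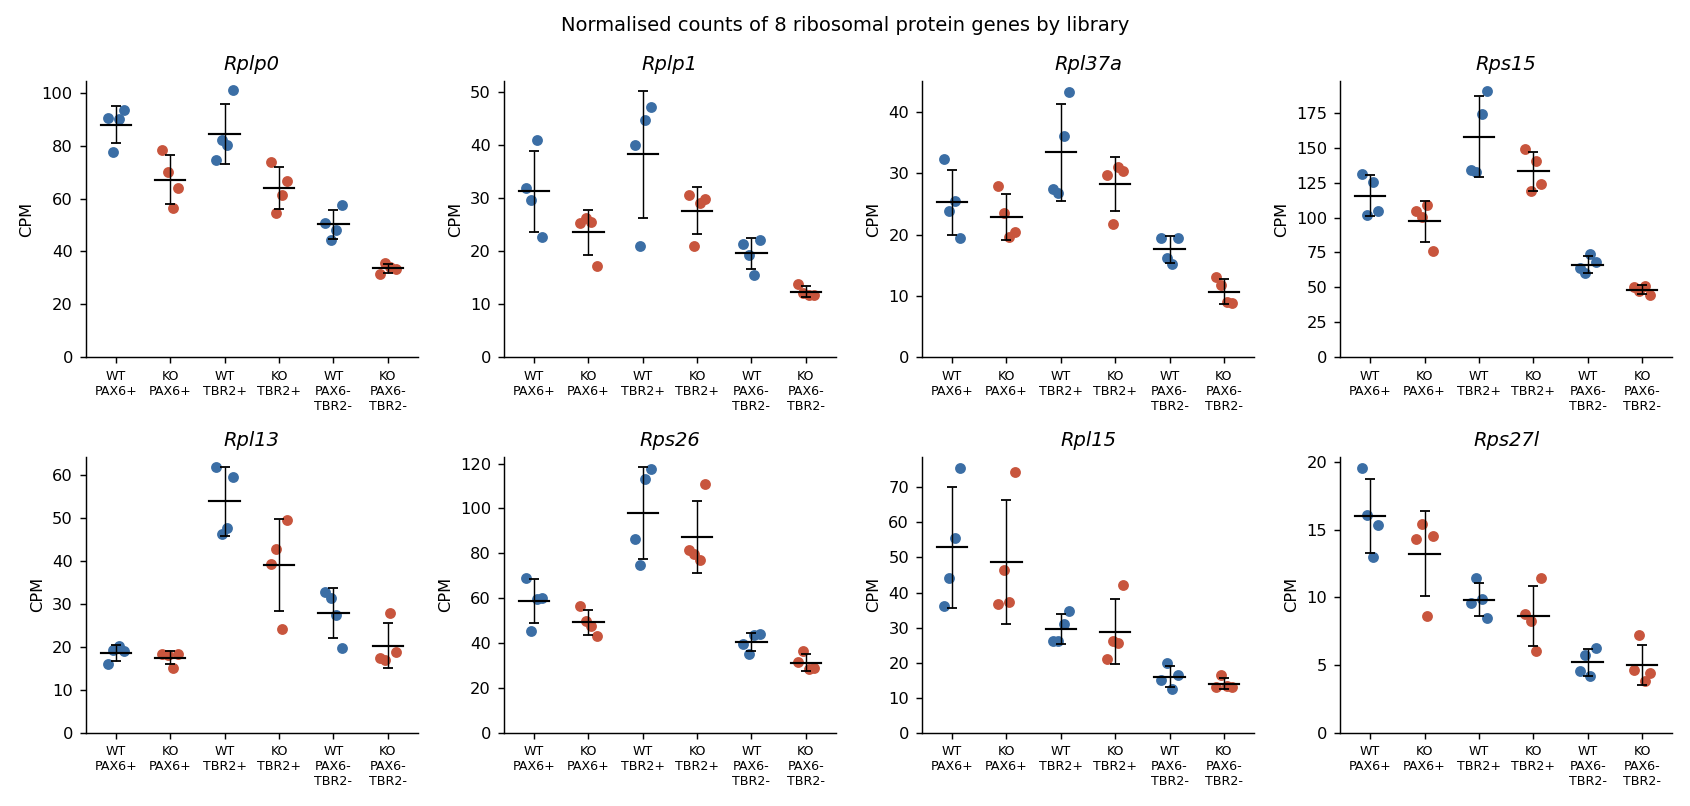
CPM of Rplp0, Rplp1, Rpl37a, Rps15, Rpl13, Rps26, Rpl15 and Rps27l in every library (vertical axis, one panel a gene), by population and genotype; points are libraries, bars are means and error bars the SD (n = 4). Rplp0 in KO PAX6-TBR2- cells lay between 31.3 and 35.5 CPM, below all WT libraries of that population (44.5 to 57.7).

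Members tended to lie on the same side of 0 in the 3 populations, which share no libraries. Of the 75 members tested in all 3, 55 were below 0 in each (73.3%, against 22.3% of the 11766 genes tested in all 3) and 5 above 0 in each (6.67%, against 21.4%). The lowest over the 3 populations were Rplp1 (-0.41, -0.47 and -0.67 in PAX6+, TBR2+ and PAX6-TBR2- cells), Rplp0 (-0.38, -0.40 and -0.59) and Rpl14 (-0.21, -0.40 and -0.54). Among the 5 above 0 in each were Rps23, a decoding-centre protein (0.14, 0.24 and 0.46), and Rpl10, a late-joining large subunit protein (0.34, 0.03 and 0.20). Across members, log2 fold changes in 2 populations had r = 0.50 (PAX6+ and TBR2+, n = 76), 0.52 and 0.50 (n = 75), as descriptions. None of these single members passed edgeR's test without the replicate block. With it Rplp0 passed in all 3 populations (edgeR adjusted p = 0.01137, 0.03667 and 0.003903). Rplp1 passed with it in PAX6+ (adjusted p = 0.03988) and PAX6-TBR2- cells (0.01556), and Rpl14 in PAX6-TBR2- cells (0.02636). Rps23 and Rpl10 passed in none. Only in PAX6+ cells was every same-numbered pair of libraries correlated over 0.1.

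The KO values were also set beside 2 sequence features of the members. Those with at least 50% unique windows had medians of -0.19, -0.25 and -0.37 in PAX6+, TBR2+ and PAX6-TBR2- cells, and 27 of 31, 28 of 30 and 30 of 30 were below 0. Those with under 50% had medians of -0.09, -0.11 and -0.23. Members with a pyrimidine run within 5 bases of the start had medians of -0.17, -0.18 and -0.35, and those without one -0.11, -0.16 and -0.28. Neither difference was tested.

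**Figure D4:**
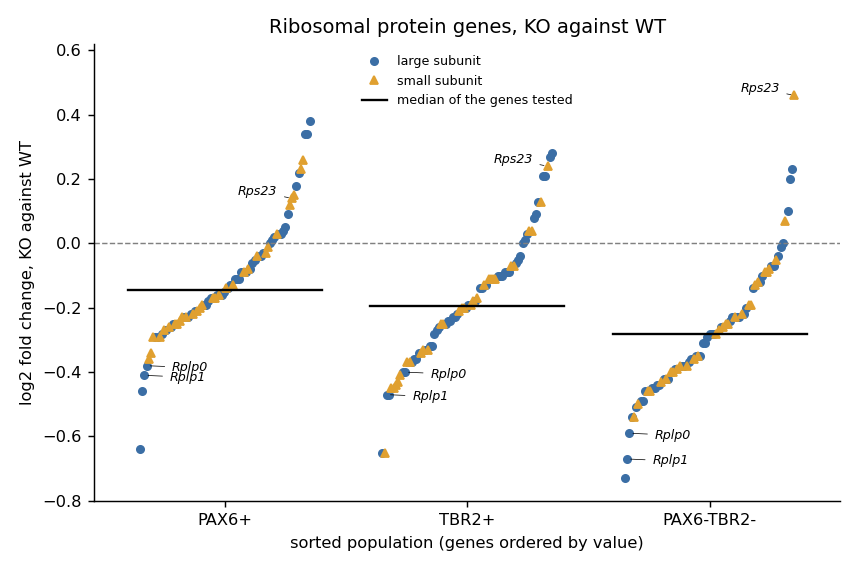
Log2 fold change of KO against WT for each tested member in PAX6+, TBR2+ and PAX6-TBR2- cells (vertical axis); each point is 1 gene, ordered by value, black lines are the members' medians and the dashed line is 0, the median of all genes. The medians were -0.15, -0.20 and -0.28, and the stalk genes Rplp0 and Rplp1 lay low in each population.

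Whether the KO difference itself changed with population was tested as an interaction of genotype and population. No member passed in any of the 3 tests in edgeR's quasi-likelihood test, where 0.612% of all genes passed for TBR2+ against PAX6+ cells, 0.051% for PAX6-TBR2- against TBR2+ cells and 0.775% for PAX6-TBR2- against PAX6+ cells. The members' medians were -0.04, -0.12 and -0.17, and the lowest adjusted p-values 0.6752, 0.9483 and 0.5605. At an unadjusted p under 0.05, 0, 2 and 2 members were lower (3.33%, 3.61% and 4.22% of all genes) and 0 higher in each (4.1%, 1.33% and 2.85%). The difference was below 0 in 48 of 78, 51 of 76 and 64 of 78 members. The medians over all genes were 0.00, -0.02 and -0.01. In simulated counts for TBR2+ against PAX6+ cells, the interaction test called 12.4% of 1.5-fold changes. These tests of single genes therefore do not show the ordering of the 3 KO medians to be a difference between populations.

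Other genes of the translation machinery and other short genes were compared with the same tests. The 71 nuclear genes of oxidative phosphorylation in the list had medians of -0.11, -0.18 and -0.25 in PAX6+, TBR2+ and PAX6-TBR2- cells, near those of the ribosomal proteins, and 51 of 71, 62 of 69 and 61 of 69 tested were below 0. Of these, only Uqcrq, a complex III subunit, fell in a test, in TBR2+ cells (-0.62, SE 0.15, edgeR adjusted p = 0.04841). The 36 translation factors had medians of -0.14, -0.10 and -0.16, the 35 ribosome biogenesis genes -0.11, -0.02 and -0.11, and the 77 mitochondrial ribosomal proteins -0.06, -0.07 and -0.13. None of the genes in these 3 lists was called in KO against WT. Other protein-coding genes with under 2000 exonic bases had medians of -0.07, -0.13 and -0.15, and 763 of 1259, 733 of 1064 and 761 of 1032 were below 0. Most short genes thus lay on the same side of 0 as the members, with medians nearer 0, and the part of gene length in the members' values was not tested further than the length and GC trend above.

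More members were called between populations than between genotypes, and so were more of all genes. Of all genes tested, 8570 of 13550 were called in WT TBR2+ against PAX6+ cells and 517 of 14212 in KO against WT PAX6+ cells. The members' summed level was 2780 to 3100 CPM in WT PAX6+, 3010 to 3920 in WT TBR2+ and 1880 to 2220 in WT PAX6-TBR2- cells. In KO it was 2400 to 2840, 2630 to 3310 and 1550 to 1660. In both genotypes all PAX6-TBR2- libraries lay below all libraries of the other populations. These CPM values use TMM scaling, which sets the bulk of genes equal between libraries. Neuron markers summed to 9440 to 11000 CPM in WT PAX6-TBR2- cells, 6540 to 8370 in WT TBR2+ cells and 537 to 616 in WT PAX6+ cells. The 7 interneuron markers summed to 344 to 1100 CPM in PAX6-TBR2- libraries and 3.77 to 27.7 in the others. The part of neuron and interneuron RNA in the differences below was not tested.

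In WT TBR2+ against PAX6+ cells, 23 of 76 members were higher (31.0% of all genes) and 14 lower (32.2%), with a median log2 fold change of 0.13 against -0.02 over all genes. The share of members that were higher, 30.3%, was near that of all genes, and the share that were lower, 18.4%, was below it. When libraries were scaled by their totals alone, 1 member was called higher and 40 lower. The share of all genes called on that scale is not given, so these counts cannot be read as a result about the members. On that scale the median of all genes moved to -0.54 and that of the members to -0.40, and relative to all genes the members lay at 0.14. Directions of single genes given here are therefore relative to the bulk of genes.

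Rpl13, a large subunit protein, was the member that rose most in TBR2+ cells. It had 15.9, 19.1, 20.1 and 19.1 CPM in WT PAX6+ libraries and 61.9, 46.3, 47.6 and 59.5 in WT TBR2+ libraries, with no overlap. It was 2.93-fold higher (log2 fold change 1.55, SE 0.13, edgeR adjusted p = 1.087e-08), and by library totals the log2 fold change was 1.02. KO cells also differed, by 1.18. Next were Rpl29 (0.82, SE 0.16, adjusted p = 0.000218), which did not pass by library totals, and Rps26, which interacts with mRNA at the exit channel (0.76, SE 0.15, adjusted p = 0.0002352). Rps26 had 69.1, 45.5, 59.7 and 60.3 CPM in WT PAX6+ and 86.6, 74.9, 113 and 117 in WT TBR2+ libraries, again with no overlap. Rpsa was also higher in TBR2+ cells (0.74, adjusted p = 0.00669).

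The members that were lower in WT TBR2+ than in PAX6+ cells included Rpl12 (-0.96, SE 0.19), Rps4x, the X-linked form of the protein (-0.93, SE 0.13), Rps12 (-0.88, SE 0.22), Rps2 (-0.84, SE 0.13), Rpl15 (-0.82, SE 0.18), Rpl27a (-0.81, SE 0.21) and Rpl5, which binds 5S ribosomal RNA (-0.78, SE 0.18). Their edgeR adjusted p-values lay between 5.939e-06 and 0.002952. Rps4x had 28.8, 28.6, 25.1 and 30.6 CPM in WT PAX6+ and 14.4, 14, 14.5 and 15.9 in WT TBR2+ libraries, with no overlap. Rplp0, Rplp1 and Rplp2 had log2 fold changes of -0.04, 0.30 and 0.10, and none of them was called.

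From WT TBR2+ to PAX6-TBR2- cells, 46 of 76 members were lower (23.4% of all genes) and 0 higher (25.6%), with a median of -0.60. By library totals the median was -0.53, with 39 lower and 0 higher, again without the share of all genes on that scale. Rps15 fell from 134, 132, 174 and 191 CPM to 63.5, 60.2, 73.6 and 67.9 (log2 fold change -1.24, SE 0.13, edgeR adjusted p = 1.241e-06), and Rps26 to 39.3, 35, 43.4 and 43.9 CPM (-1.26, SE 0.14, adjusted p = 3.428e-06). Neither overlapped with TBR2+ libraries. Rpsa fell by 1.27 on the log2 scale (SE 0.25), Rps24 by 1.10 (SE 0.12), Rpl39 by 1.10 (SE 0.25), and the stalk genes Rplp2, Rplp1 and Rplp0 by 1.07 (SE 0.18), 0.95 (SE 0.21) and 0.73 (SE 0.12). Rpl21 had the highest value (0.47, SE 0.24) and was not called (edgeR adjusted p = 0.1099).

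Against WT PAX6+ cells, 43 of 76 members were lower in WT PAX6-TBR2- cells (33.7% of all genes) and 1 higher (32.9%), with a median of -0.50. By library totals the median was -0.94, where the median of all genes was -0.46. On that scale 70 were lower, a count given without the share of all genes. Rpl15, a large subunit protein that starts with a long pyrimidine run in the sequences above, differed most. It had 36.1, 44.1, 55.7 and 75.6 CPM in WT PAX6+, 26.1, 26.3, 31.0 and 34.8 in WT TBR2+ and 15.1, 19.8, 12.6 and 16.5 in WT PAX6-TBR2- libraries, and the 3 groups did not overlap. It was 3.26-fold lower in PAX6-TBR2- than in PAX6+ cells (log2 fold change -1.70, SE 0.21, edgeR adjusted p = 2.378e-06) and differed by -1.77 in KO cells. The gene that was higher was Rpl13 (0.57, SE 0.16, adjusted p = 0.00496), which had 32.7, 31.4, 27.4 and 19.8 CPM there, below its TBR2+ level, and a log2 fold change of 0.13 by library totals. Rps6 was next highest (0.44, SE 0.26, edgeR adjusted p = 0.1467), and by library totals its value was -0.01.

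The same comparisons were made in KO cells. In TBR2+ against PAX6+ KO cells 13 of 77 members were higher (28.2% of all genes) and 14 lower (28.4%), with a median of 0.02. Leaving out 1 library gave 8 to 12 lower, with 8 without KO PAX6+ replicate 4 and 9 without KO PAX6+ replicate 2 or KO TBR2+ replicate 1, and a median of -0.01 to 0.12. From TBR2+ to PAX6-TBR2- cells 51 of 75 were lower (23.2%) and 0 higher (25.0%), with a median of -0.70, and against PAX6+ cells 52 of 76 were lower (31.8%) and 0 higher (31.9%), with a median of -0.63. Rps26 and Rps15 were the lowest from TBR2+ to PAX6-TBR2- cells, at -1.47 and -1.45. Across members, WT and KO log2 fold changes had r = 0.92 (TBR2+ against PAX6+, n = 76), 0.88 (PAX6-TBR2- against TBR2+, n = 75) and 0.86 (PAX6-TBR2- against PAX6+, n = 76), between values that share no libraries.

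**Figure D5:**
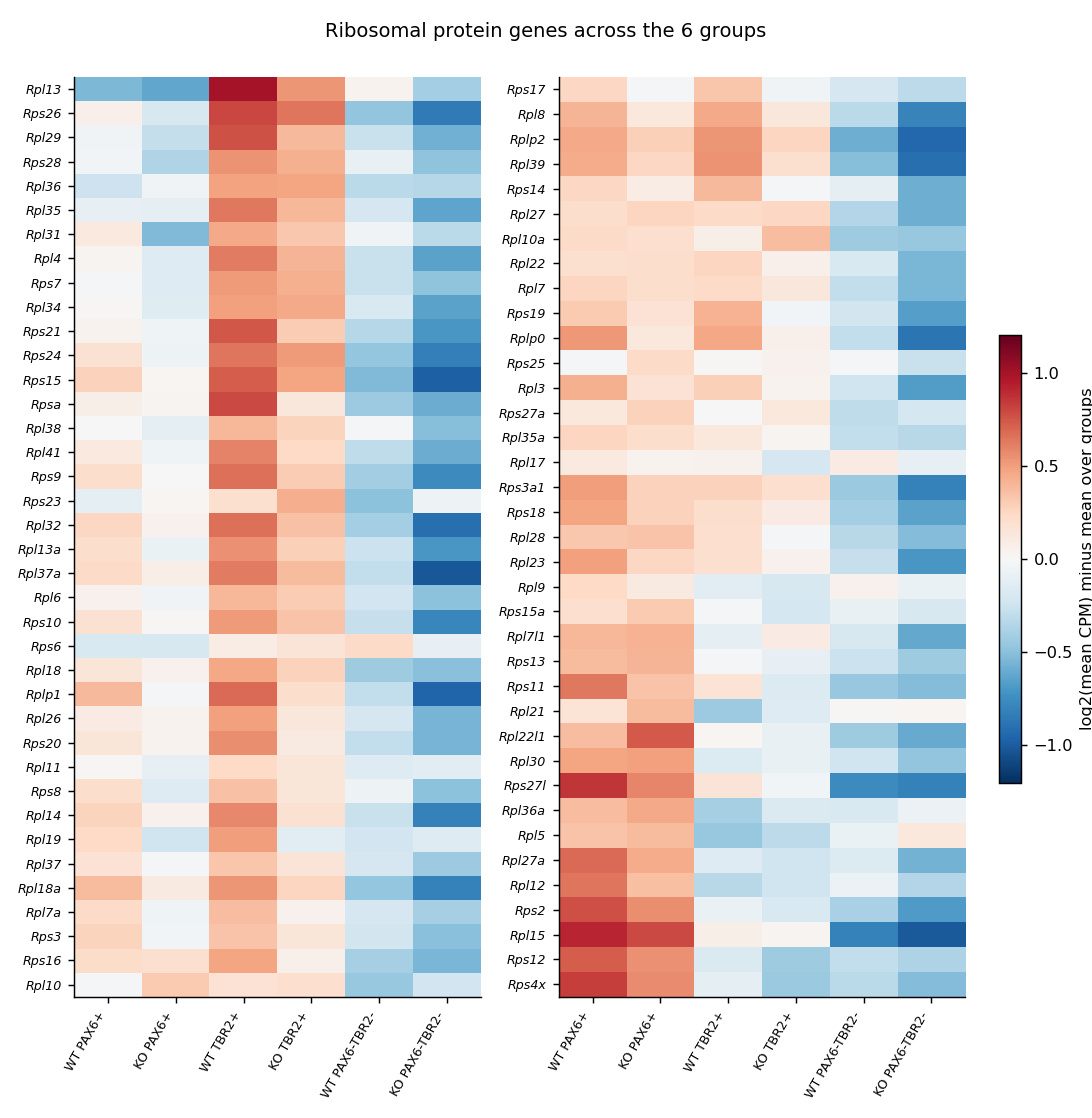
Log2 of the mean CPM of 75 members in the 6 groups, minus each gene's mean of these over the groups (colour scale), taken from those with a mean above 1 CPM in every group, ordered by the difference of TBR2+ and PAX6+ cells. The PAX6-TBR2- columns are low for most genes, and Rpl13 stands at the TBR2+ end of the order.

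The variant paralogs were set beside their parents. Rps27l had 19.6, 16.1, 13 and 15.3 CPM in WT PAX6+, 9.55, 11.4, 9.89 and 8.51 in WT TBR2+ and 4.55, 5.75, 4.2 and 6.29 in WT PAX6-TBR2- libraries, with no overlap between the 3 groups. It was lower by 0.68 (SE 0.17, edgeR adjusted p = 0.002186) in TBR2+ and by 1.56 (SE 0.20, adjusted p = 3.736e-06) in PAX6-TBR2- than in PAX6+ cells. Its parent Rps27 was too low to test. Rpl7l1 was lower in WT TBR2+ than in PAX6+ cells (-0.50, SE 0.16, edgeR adjusted p = 0.01197), and Rpl7, with which it is 52.7% identical in coding sequence, had -0.01 (SE 0.14).

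Per kb of mRNA in WT PAX6+ cells, Rpl7l1 had 18.2 CPM and Rpl7 28, and Rpl22l1 had 9.59 and Rpl22 160. Rpl22l1 averaged 5.29 ± 1.29 CPM in WT PAX6+ and 3.04 ± 1.14 in WT PAX6-TBR2- cells (SD, n = 4), a log2 fold change of -0.82 (SE 0.29, edgeR adjusted p = 0.02135), and for Rpl22 the value was -0.36 (SE 0.11, adjusted p = 0.0109). In KO against WT none of Rps27l, Rpl7l1 and Rpl22l1 passed in any population. Rpl10l and Rpl39l, which share 84.7% and 85.0% of their coding bases with Rpl10 and Rpl39, had 0 reads, and Rpl3l had 12 reads in all 24 libraries, while Rpl3 had 14.2 CPM per kb in WT PAX6+ cells.

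The genes that build and regulate ribosomes were compared between the WT populations with the same tests. Of 35 ribosome biogenesis genes, 2 rose and 23 fell in WT TBR2+ against PAX6+ cells (median -0.57), where 31.0% of all genes rose and 32.2% fell. From TBR2+ to PAX6-TBR2- cells 6 rose and 4 fell (median 0.11), where 25.6% and 23.4% of all genes did. Dkc1, a pseudouridine synthase, was lower in TBR2+ cells by 2.11 (SE 0.12), Ltv1, a small subunit assembly factor, by 1.82 (SE 0.16), and Polr1b, an RNA polymerase I subunit, by 1.42 (SE 0.14). Among regulators, Eif4ebp1, a translation repressor downstream of mTOR, was lower in WT TBR2+ than in PAX6+ cells by 3.91 (SE 0.55), while Mycl (1.85, SE 0.11) and Myc (1.25, SE 0.23) were higher. From TBR2+ to PAX6-TBR2- cells Myc rose further (1.53, SE 0.16), Eif4ebp2 (0.74, SE 0.11) and Larp1 (0.62, SE 0.10) rose, and Akt1s1 fell (-0.55, SE 0.17). Of the 4 called translation factors with the largest changes there, only the elongation factor Eef1a2 rose, by 3.53 (SE 0.37). Eef1b2 (-0.73, SE 0.11), Pabpc1 (-0.69, SE 0.08) and Tpt1 (-0.67, SE 0.18) fell. In WT TBR2+ against PAX6+ cells Eef1a2 had been lower (-1.22, SE 0.42), as had Eif2s1 (-1.34, SE 0.13). Eif4a1 (0.92, SE 0.11) and Eef2 (0.86, SE 0.1) were higher there. Of the mitochondrial ribosomal proteins, 10 rose and 19 fell in TBR2+ against PAX6+ cells (median -0.10), and 1 rose and 13 fell from TBR2+ to PAX6-TBR2- cells (median -0.21). Oxidative phosphorylation genes had 22 higher and 6 lower in the first of these comparisons, and 1 higher and 24 lower in the second (medians 0.17 and -0.32), out of 71 and 69 tested. Of the mitochondrial ribosomal proteins 73 were tested in each, and the shares of all genes are those given for the biogenesis genes. Whether these lists differ from the ribosomal proteins was not tested beyond these counts.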

How the data were processed

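Gene counts were made by the authors; per the submitters' processing notes FastQC, cutadapt, STAR, featureCounts, DESeq2 and mm10 were used, with no versions or settings given. Strand, multi-mapping and annotation settings are given nowhere in the labels or notes used. Per the labels' protocols, RNA was amplified by single primer isothermal amplification, without molecular identifiers. The authors also deposited a normalized signal, gene counts divided by size factors, for 23 usable columns. It gave whole reads for 100% of values (within 0.0001), and edgeR on those reads called 517, 147 and 1 genes in KO against WT in PAX6+, TBR2+ and PAX6-TBR2- cells, 0 of them members. In TBR2+ cells this set 3 WT against 4 KO columns. The recovered reads equalled a deposited raw library in every PAX6+ column, but in the other populations in only 1, and the rest held more reads in each group, so the 147 and the 1 rest on other counts than the raw tables.

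The lanes of each library were summed here (4948977 to 30027954 counts). Genes were named with GENCODE M21 (GRCm38): 37693 of 39017 matched. Tests used edgeR 4.0.16 in R 4.3.3 (quasi-likelihood test, filterByExpr, TMM), fitted on the groups compared, over all genes passing the filter, with Benjamini-Hochberg adjustment. SE was the absolute log2 fold change divided by the square root of F. DESeq2 1.42.0 was an alternative, as were no filter, scaling by library totals, a trend on length and GC content, a replicate block and leaving out each library. Tables were handled with Python 3.11.15, pandas 2.3.3 and scipy 1.17.1. CPM are TMM-scaled over all 24 libraries, and no column was left unused for want of a sample.

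Same-numbered WT and KO PAX6+ libraries had correlated deviations from their group means (r = 0.16 to 0.36 in 4 pairs, each over 0.1), so those numbers pair the samples in the data; the labels do not say what a number marks. Replicates differed by more than sampling noise in every pair (chi-square per degree of freedom 5.65 to 45.5).

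On simulated counts for KO against WT in PAX6+ cells (13982 genes), the test called 33.7% of 1.5-fold, 83.5% of 2-fold and 0.0363% of unchanged genes. For TBR2+ against PAX6+ WT cells (13329 genes) it called 49.5% and 71.1%, and for the interaction of these (14143 genes) 12.4% and 45.4%.

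Members and gene lists were chosen with earlier results of these data known. Named members are, by rule, up to 10 called in each comparison, the 3 highest and 3 lowest log2 fold changes, the 5 highest and 3 lowest per kb, the stalk genes, Rpsa and the variant paralogs with their parents, and of other lists up to 4 called genes. The text prints those on which a comparison turns, and other members named beside them were chosen after their values were seen. Results of 1 gene are not reported here by name.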

Additional observations from a re-analysis of the deposited data

Results flagged for a closer look

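In 9 of 102 group-and-measure sets of 4 libraries, 1 library lay far from the other 3 relative to the range of the set, by Dixon's 95% criterion (0.829 for 4 samples). Chance gives about 1 in 20. In PAX6+ cells, Rpsa had 6.9 CPM in WT replicate 2 (5.46 to 5.69 in the others), Rplp1 had 17.2 in KO replicate 4 (25.2 to 26.3), Rpl13 had 15.1 in KO replicate 3 (18.1 to 18.4) and Rps27l had 8.6 in the same library (14.4 to 15.46). In TBR2+ cells, Rps26 had 111 CPM in KO replicate 4 (77.0 to 81.5) and Rpl37a had 21.7 in KO replicate 2 (29.7 to 31.0). In PAX6-TBR2- cells, Rpl22 had 48.8 CPM in WT replicate 3 (61.1 to 62), Rpl13 had 27.9 in KO replicate 3 (17.0 to 18.8) and Rpl15 had 16.5 in KO replicate 2 (13 to 13.3). KO PAX6+ replicate 3 is the only library that appears with more than 1 gene.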

How the results depend on the processing

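With the replicate block, edgeR called 6, 5 and 10 members lower in KO against WT in PAX6+, TBR2+ and PAX6-TBR2- cells, against 0 without it. Those in TBR2+ cells included Rplp0, Rps9, Rpl41 and Rpl13 (1.97% of all genes were lower), and those in PAX6-TBR2- cells Rpl37a, Rplp0, Rpl32, Rpl13a, Rps15, Rplp1, Rpl4, Rpl14 and Rpl8 (0.743%). In these populations not every same-numbered pair was correlated over 0.1 (r = 0.05 to 0.41 and 0.08 to 0.37), though 4 of 4 and 3 of 4 libraries correlated best with their own number, a hint from the data and not the design. Between populations (r = -0.19 to 0.26) the block moved no count of called members by over 1.5 times.

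DESeq2 called 1 member in PAX6+ and 2 in PAX6-TBR2- cells, the length and GC trend 1 in PAX6+ cells (Rps3), and no filter 5 in TBR2+ cells and 1 in PAX6-TBR2- cells. The shares of all genes called in these fits, and in those that left out 1 library, are not given. Their counts of members therefore cannot be set against all genes. Leaving out 1 library gave 0 to 1 called members in PAX6+ cells (Rplp0 without KO replicate 1) and 0 to 1 in TBR2+ cells (Rplp1 without WT replicate 2, Rplp0 without KO replicate 1). It gave interaction medians of -0.21 to -0.07 for PAX6-TBR2- against PAX6+ cells (-0.07 without WT PAX6-TBR2- replicate 4), -0.18 to -0.06 for PAX6-TBR2- against TBR2+ cells and -0.09 to 0.01 for TBR2+ against PAX6+ cells (0.01 without KO PAX6+ replicate 1). For KO TBR2+ against PAX6+ cells it gave 19 to 31 called members (10 to 19 higher, 8 to 12 lower) and a median of -0.01 to 0.12, below 0 without KO PAX6+ replicate 3.

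Scaling by library totals moved medians to -0.40 (TBR2+ against PAX6+, WT, sign turned) and -0.61 (KO, with 44 called), to -0.94 (PAX6-TBR2- against PAX6+, WT, with 70 called) and -1.05 (KO), to -0.49 (PAX6-TBR2- against TBR2+, KO), and to 0.02 for the interaction of PAX6-TBR2- against TBR2+ cells. The length and GC trend gave -0.40 for WT PAX6-TBR2- against PAX6+ cells. By library totals Rps6 was at -0.01. Shares of all genes called by totals are not given, so the counts of 44 and 70 cannot be read as results about the members. The causes were not tested. Other counts, medians and single genes kept their direction and side of the threshold in 206, 211 and, for KO against WT, 616 settings, where 30 settings brought a single gene past the threshold. Between populations, 16 settings took a called gene out of it. Counting error is small for the summed share and large for members near 1 CPM, which rest on few reads a library.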

Other observations

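Genes of the ribosome that the symbol rule left out had KO against WT values on the same side of 0 in most cases. Rack1, a small subunit scaffold protein, had log2 fold changes of -0.25 (SE 0.10), -0.21 (SE 0.11) and -0.31 (SE 0.09) in PAX6+, TBR2+ and PAX6-TBR2- cells, and Rpl36al had 0.07, -0.30 and -0.39. Fau, the source of a small subunit protein fused to a ubiquitin-like one, had -0.39 and -0.42 in PAX6+ and TBR2+ cells. None of these passed edgeR's quasi-likelihood test. Between WT populations Rack1 was lower in TBR2+ than in PAX6+ cells (-0.32, SE 0.09, edgeR adjusted p = 0.004981) and lower again in PAX6-TBR2- cells (-0.38, SE 0.10, adjusted p = 0.005023 against TBR2+ cells). Rpl36al was higher in WT TBR2+ than in PAX6+ cells (0.49, SE 0.16, edgeR adjusted p = 0.01125). It was lower in WT PAX6-TBR2- than in TBR2+ cells (-0.44, SE 0.16, edgeR adjusted p = 0.03829).

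Of the 233 genes named as ribosomal protein pseudogenes, 18, 13 and 9 had enough counts to be tested in KO against WT, with medians of 0.14, -0.05 and -0.06 in PAX6+, TBR2+ and PAX6-TBR2- cells. In WT TBR2+ against PAX6+ cells Rpl31-ps8 (1.13, SE 0.33) and Rpl10a-ps1 (1.11, SE 0.27) were higher. Reads of a pseudogene and its parent can match both, so these values are uncertain.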
